A study of Mus musculus with 6 samples.

Results

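The 30 genes described here encode proteins of the small (40S) subunit of the cytosolic ribosome, and were followed in 3 tissues of mice that lack ataxin-2 and of wild-type mice. They were taken by symbol from a fixed list. It holds 28 genes whose names begin with Rps, among them Rps27l, a paralogue of Rps27, and in addition Fau and Gnb2l1 (now called Rack1). Rps27a and Fau make their ribosomal proteins as fusions to ubiquitin and to a ubiquitin-like protein, and Gnb2l1 encodes the scaffold protein on the head of the subunit. Of 24654 features with at least 1 sense tag, 29 were members counted in rows of their own symbol, and Rps27 was counted only in rows shared with a predicted gene. The list names no other small-subunit gene, and no other was analysed here.

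The small subunit binds mRNA, scans for the start codon and pairs each codon with its tRNA. Its proteins are made in near-equal amounts and joined to the ribosomal RNA in the nucleolus. Their mRNAs are among the most abundant in most cells, and many begin with a C followed by a run of pyrimidines, the terminal oligopyrimidine (TOP) start, through which growth signals control their translation. Ataxin-2 is a cytoplasmic RNA-binding protein that binds poly(A)-binding protein, and expansion of its polyglutamine stretch in humans causes a spinocerebellar ataxia.

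The study sequenced cerebellum, hippocampus and liver of C57BL/6 mice that were either homozygous for the Atxn2 knockout (Atxn2-KO, Atxn2-/-) or wild type (Atxn2+/+), all labelled as 6 months old and with no treatment named. Each of the 6 libraries was a pool of 3 animals, so every genotype had 1 library per tissue, and the titles give the same animal numbers in each tissue. The method, MACE (massive analysis of cDNA ends), reads 1 tag near the 3′ end of each polyadenylated transcript, so tag numbers of different genes can be compared without a length correction. Fewer cells of a type and less RNA per cell cannot be told apart in such tissue samples.

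The libraries held 1774523 to 2727523 sense tags on RefSeq RNA records, called gene tags below. Atxn2 had 0, 1 and 2 tags in knockout cerebellum, hippocampus and liver, against 167, 194 and 115 in wild type. Purkinje and granule neuron markers were high in cerebellum, forebrain excitatory neuron markers in hippocampus and hepatocyte markers in liver, each as labelled. Xist, transcribed from the inactive X chromosome of females, had 0 tags in the 3 knockout libraries and 34, 49 and 87 in wild type, while the Y-linked Ddx3y had 81 to 176 tags in all 6. The sex make-up of the pools therefore differed with genotype, and the 2 cannot be told apart. Levels are given as CPM, TMM-scaled counts per 1000000 gene tags. The summed level of 10 hepatocyte markers was lower in knockout brain, at 279 against 526 CPM in cerebellum and 248 against 1288 in hippocampus. The sum of 4 choroid plexus markers stood at 2490 against 3618 and 151 against 396 in the same tissues. Of these 4 only Ttr reached 10 CPM in hippocampus (log2 ratio -1.45), and Ttr was also higher in liver than in brain (fitted log2 difference 5.32). The 4 oligodendrocyte markers summed to 2885 against 4056 CPM in cerebellum and 1897 against 2488 in hippocampus. In cerebellum only Mbp was lower in the knockout (log2 ratio -0.59) and 3 of the 4 were higher. In hippocampus 3 were lower and 1 was higher. The summed level of the 2 neutrophil markers was 56.2 against 24.4 CPM in cerebellum, 8.61 against 7.52 in hippocampus and 58.0 against 32.1 in liver. In hippocampus neither marker averaged 10 CPM, and the lowest marker value was 1.99 CPM in the knockout and 3.58 in wild type. The summed level of red blood cell markers was higher in the knockout in each tissue, at 814 against 641, 211 against 139 and 998 against 532 CPM.

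Promoters in RefSeq (GRCm38.p6) show the start that many of these mRNAs share. A C lying within 5 bases of the annotated start and followed by at least 4 letters that are each C or T, on the strand of the gene, was present for 14 of the 26 members with a promoter in the table (53.8%), for 16 of 38 large-subunit genes (42.1%) and for 21.2% of all 27025 genes there. Rps14, Rps20, Rps27a and Rps29 had no entry. The 6 longest runs among the members are printed because they are the sequence feature for which this family of mRNAs is known. Each stretch runs from 40 bases before the annotated start to 20 bases after it, with the run in capitals. They lie at chr19:6057907-6057966 (plus strand) for Fau, chr11:48800320-48800379 (plus) for Gnb2l1, chr17:27635225-27635284 (minus) for Rps10, chr17:33955646-33955705 (minus) for Rps18, chr4:86857348-86857407 (minus) for Rps6 and chr3:90213629-90213688 (minus) for Rps27.
Fau: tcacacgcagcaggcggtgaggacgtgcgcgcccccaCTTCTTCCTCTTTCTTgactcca
Gnb2l1: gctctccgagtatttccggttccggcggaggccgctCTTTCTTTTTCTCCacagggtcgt
Rps10: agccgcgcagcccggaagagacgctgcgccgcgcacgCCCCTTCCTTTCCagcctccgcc
Rps18: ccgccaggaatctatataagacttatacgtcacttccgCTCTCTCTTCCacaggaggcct
Rps6: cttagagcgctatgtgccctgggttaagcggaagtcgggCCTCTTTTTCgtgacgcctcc
Rps27: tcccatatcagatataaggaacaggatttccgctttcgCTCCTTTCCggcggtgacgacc
The run was 16 letters long in Fau, 14 in Gnb2l1, 13 in Rps10, 11 in Rps18, 10 in Rps6 and 9 in Rps27. A match describes these letters alone and does not show where transcription began in these tissues.

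In every tissue the members together took a larger share of gene tags in the knockout. In rows of their own symbols they made up 1.789% of gene tags in cerebellum of the knockout and 1.615% in that of the wild type (95% exact binomial intervals 1.772 to 1.806% and 1.599 to 1.631%). The shares for hippocampus were 1.964% and 1.628%, and those for liver 1.575% and 1.444%. With rows shared with predicted genes added, the knockout and wild-type shares were 2.160% and 1.951%, 2.382% and 1.960%, and 1.924% and 1.766%. The large-subunit genes, in rows of their own symbols, also took larger shares in the knockout, at 2.829% and 2.66%, 3.054% and 2.638%, and 2.52% and 2.326%. The intervals of knockout and wild type did not overlap in any tissue. They cover counting error only, since each group is 1 library and the sources used here do not say how duplicate reads were treated.

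**Figure D1:**
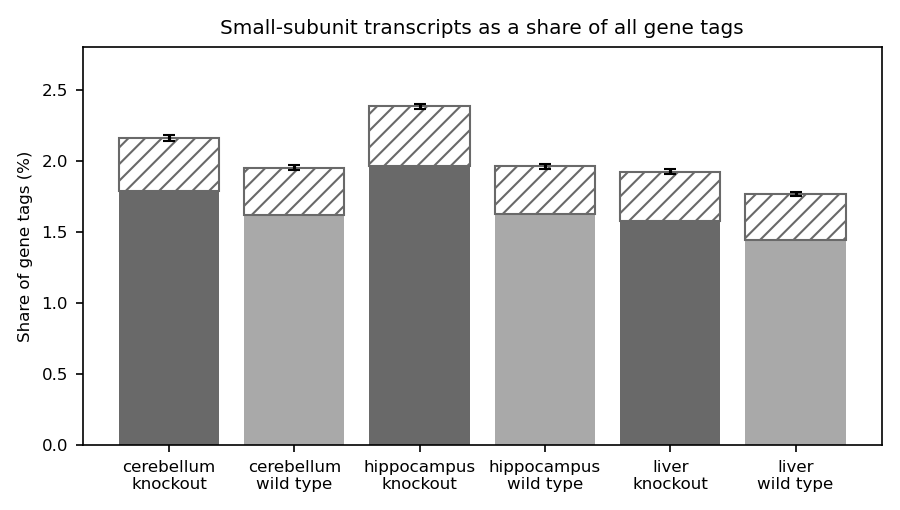
Share of gene tags (%) taken by the members in each of the 6 libraries; filled bars are rows of the symbol alone, hatched bars are rows shared with predicted genes, and error bars are 95% binomial intervals of the sum. In each tissue the knockout bar is the higher, most in hippocampus at 2.382% against 1.960%.

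Levels differed widely between members. By tags over the 6 libraries the most abundant were Fau with 22130, Rps29 with 16111 and Rps21 with 15556. Levels below are in CPM, in the order cerebellum, hippocampus and liver, and with the knockout before the wild type in each pair; ratios follow the same order. Fau, whose product is cleaved into a ubiquitin-like protein and the ribosomal protein S30, had 1341 and 1331, 1322 and 982, and 3057 and 2454 CPM. It was at about the same level in the 2 cerebellum libraries and higher in the knockout in the other tissues. At the other end, Rps6, Rps15, Rps15a, Rps16 and Rps27l lay between 9.67 and 25.4 CPM in the brain libraries. Rps15 and Rps16 are low here because 97.5% and 94.0% of their tags fell in shared rows. Shared rows held 0.6% of the tags of Rps6, which encodes the substrate of the S6 kinases, and 0.8% of those of Rps15a, yet their own rows held only 324 and 254 tags in all. Whether tags of these genes were counted elsewhere was not tested. The order of the members was much alike between tissues: over 23 members with at least 100 tags in every library, log levels in cerebellum correlated with those in hippocampus at r = 0.94 and with those in liver at 0.72, and the remaining pair of tissues reached 0.82. These values are a description, over points that share libraries.

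**Figure D2:**
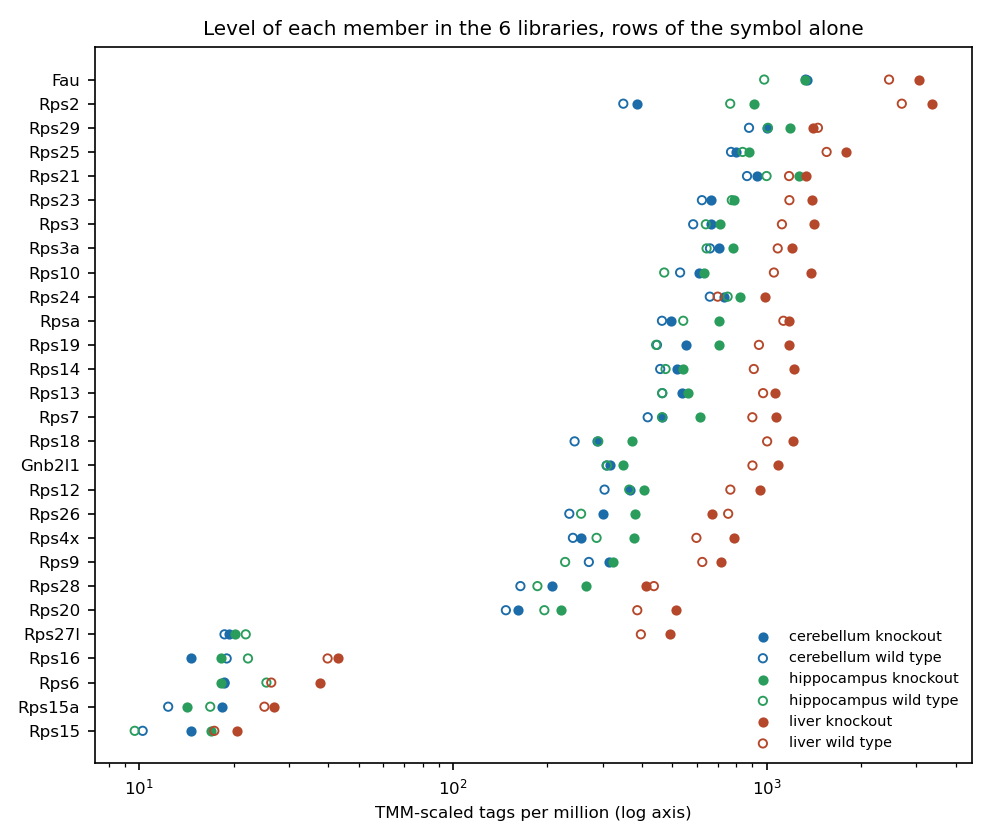
TMM-scaled CPM (log axis) of 28 members in the 6 libraries, filled circles for knockout and open circles for wild type, coloured by tissue. Most members lie above 100 with liver to the right; Rps27l sits near 20 in brain and at 397 and 493 in liver.

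The first comparison was knockout against wild type. Across the 3 tissues the fitted log2 difference was above 0 for 26 of 28 members tested, with a median of 0.24 beside a median of -0.004 over all 11557 features. None of the 28 was called by edgeR's quasi-likelihood test with tissue as a term (Benjamini-Hochberg adjusted p under 0.05), where 0.00865% of all features were called higher and 0.0865% lower. At an unadjusted p under 0.05 in the edgeR test there were 2 of 28 members, Rps15 and Rps19, both higher. Of all 11557 features, 233 were higher and 331 lower at that level. DESeq2 also called 0 members. The fit has 2 residual degrees of freedom per gene, and its p-values measure how far tissues differ from each other, not how far animals do. The highest fitted values were those of Rps15 (0.54, SE 0.24, adjusted p 0.999), Rps19 (0.43, SE 0.20, adjusted p 0.999) and Rps10 (0.34, SE 0.20, adjusted p 0.999). The lowest were those of Rps16 (-0.19, SE 0.20), Rps6 (-0.04, SE 0.22) and Rps25 (0.11, SE 0.22). The places of Rps15 and Rps16 rest on leaving out shared rows, which hold 97.5% and 94.0% of their tags. With those rows added their fitted values were 0.24 and 0.23.

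Within a tissue there is no replicate and no test, so each log2 ratio is given with its exact 95% counting interval. A ratio counts as past the threshold when it exceeds 1.2-fold and the interval leaves out 0. In cerebellum the median ratio over 29 members was 0.15, and 4 of the 28 members of at least 10 CPM were past the threshold as higher, against 4.87% of all features of at least 10 CPM. In hippocampus the median was 0.25 and 14 of 28 were past it, against 10.4%. In liver the median was 0.27 and 13 of 28 were past it, against 10.6%, and 23 members lay at 100 CPM or more in every tissue. The liver counts depend on the scaling: with DESeq2 size factors 18 members were past the threshold as higher and 0 as lower, and by library totals 5 were higher and 1, Rps26, lower, with a median of 0.147. Under TMM no member was past the threshold as lower in any tissue, where 6.16%, 8.88% and 9.53% of features were. Among features of at least 100 CPM the shares higher were 5.82%, 16.8% and 27.5% and the shares lower 7.05%, 12.5% and 13.0%. By sign alone, 26, 24 and 25 of the 28 members were higher in the knockout, against 48.2%, 51.5% and 49.0% of features of at least 10 CPM and 49.2%, 51.9% and 63.7% of those of at least 100 CPM. The medians over all features of at least 10 CPM were -0.01, 0.01 and -0.01. Over those of at least 100 CPM they were -0.004, 0.015 and 0.10, so abundant features also tended upward in knockout liver.

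Directions were then compared between tissues. In all 3 tissues 21 of 29 members were higher in the knockout and 0 were lower; of features of at least 10 CPM, 13.4% were higher throughout and 13.4% lower, and of those of at least 100 CPM, 30.1% and 5.95%. Counting intervals lay above 0 in all 3 tissues for Rps2, Rps3, Rps3a, Rps7, Rps9, Rps10, Rps12, Rps13, Rps14, Rps18, Rps19, Rps21 and Rps24. That is 13 of 29, against 0.904% of features of at least 10 CPM and 6.99% of those of at least 100 CPM. Counting intervals narrow as tags rise and most members lie well above 100 CPM, so these shares are not matched for level. No member had intervals below 0 throughout (0.361% and 0.893% of features). Rps19 alone was past 1.2-fold in each tissue (0.181% and 0.893%), and by library totals its liver ratio of 0.20 (0.08 to 0.31) no longer was. Over the 23 members with at least 100 tags in each library, the SD of the ratios was 0.09, 0.17 and 0.17, beside root-mean-square counting errors of 0.06 in each, so the ratios differed among members by more than counting error. When transcripts that exceeded both brain tissues by 20 times or more in liver were removed before scaling, the medians were 0.14, 0.24 and 0.27; the part of the other cell type markers that moved with genotype, and of the sex make-up of the pools, was not tested.

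**Figure D3:**
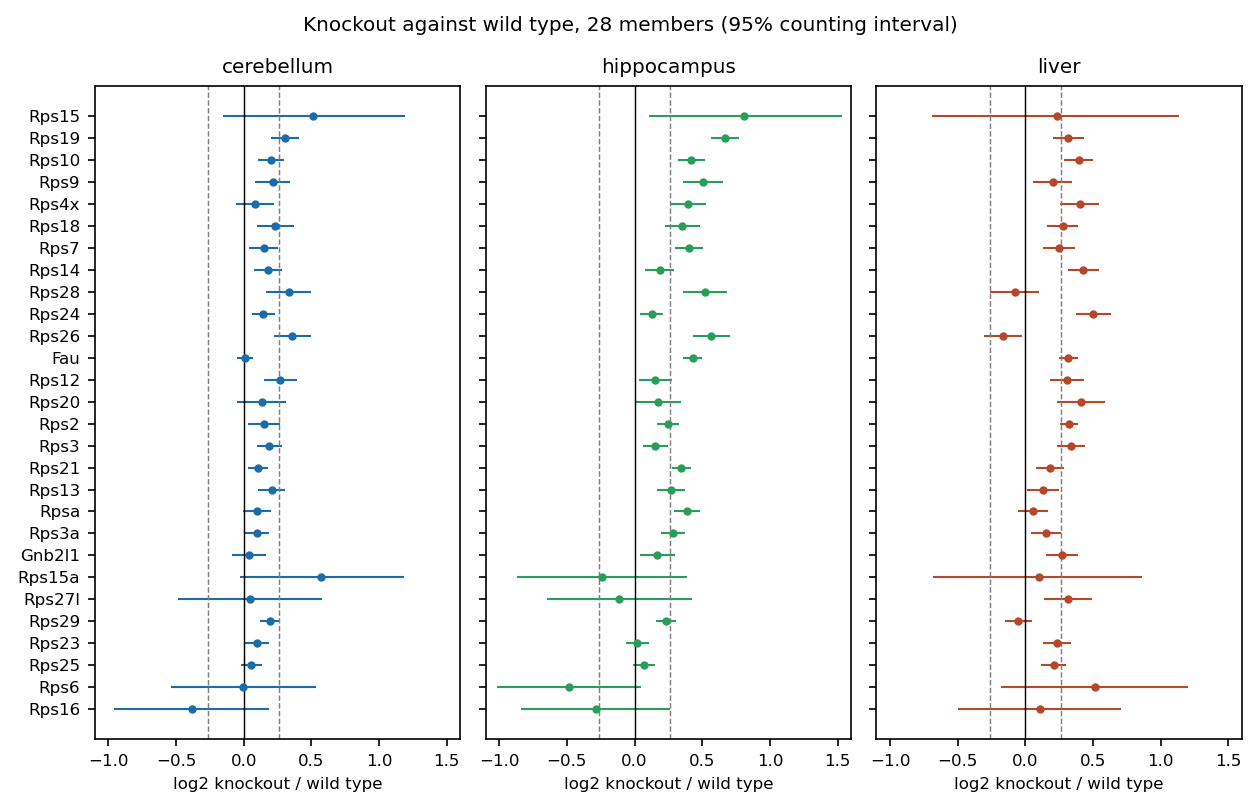
Log2 ratio of knockout to wild type for 28 members in each tissue, ordered by the fit across tissues, with 95% counting intervals; dashed lines mark 1.2-fold. Most points lie right of 0 in all panels, Rps26, Rps28 and Rps29 lie left of it in the liver panel, and the wide intervals belong to members with few tags.

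Proteins that line the mRNA entry channel and the decoding centre came first by role. Rps2, part of the entry channel (chr17:24718121-24721927), had 387 and 349, 908 and 765, and 3367 and 2695 CPM. The knockout value was the higher in each tissue, with ratios of 0.15, 0.25 and 0.32. Rps3, also at the entry channel and known as well for a role in DNA repair, had ratios of 0.19, 0.15 and 0.34. Rps9, of the same channel, had ratios of 0.21 (0.08 to 0.34), 0.50 (0.36 to 0.65) and 0.20 (0.06 to 0.35). Rps23, which reaches into the decoding centre, had 0.10, 0.02 and 0.24, and its hippocampal interval of -0.07 to 0.10 included 0. In this group 3 of 4 members had intervals above 0 throughout. Over all members it was 13 of 29, against 0.904% of features of at least 10 CPM and 6.99% of those of at least 100 CPM. Whether groups by position differ was not tested.

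In the head of the subunit, Rps19 was higher in the knockout in each tissue. Mutations of human RPS19 are a cause of Diamond-Blackfan anaemia. The mouse gene (chr7:24884592-24889811) had 551 and 447, 706 and 444, and 1177 and 944 CPM. Its ratios were 0.30 (0.20 to 0.40), 0.67 (0.57 to 0.77) and 0.32 (0.20 to 0.43), the widest gap being in hippocampus. Rps10, which with Rps20 is ubiquitinated on collided ribosomes in human cells, stood at 609 and 530 CPM, 631 and 471 CPM, and 1386 and 1054 CPM in the same order. Its ratios were 0.20, 0.42 and 0.40, with no interval reaching 0. Rps20 had 0.13 (-0.05 to 0.31), 0.17 and 0.41, so that its cerebellar interval included 0.

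Among the other head proteins, Rps12 in the beak had ratios of 0.27, 0.15 and 0.31, and Rps18, at the contact with the large subunit, had 287 and 244, 371 and 290, and 1213 and 1003 CPM, with ratios of 0.23, 0.35 and 0.27. All 6 of these intervals lay above 0. Rps25, needed in human cells and yeast for initiation at certain viral internal entry sites, had the lowest fitted difference among members of at least 100 CPM. It stood at 800 and 770 CPM, 880 and 838 CPM, and 1793 and 1552 CPM, with ratios of 0.06, 0.07 and 0.21, and only the liver interval (0.12 to 0.30) lay above 0. Gnb2l1 had ratios of 0.04, 0.17 and 0.27. In all, 4 of the 11 head members had intervals above 0 throughout, beside 13 of 29 over all members and the shares over all features given above. Rps15, Rps16, Rps28 and Rps29 are taken up below.

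On the platform and the mRNA exit side, Rps3a had ratios of 0.10, 0.28 and 0.15 and Rps14, which contacts the mRNA near the exit, had 0.18, 0.18 and 0.43. Rps21 (chr2:180257379-180258444) stood at 930 and 865 CPM, 1267 and 999 CPM, and 1334 and 1178 CPM, with ratios of 0.10, 0.34 and 0.18. These are the 3 of 7 members of the group with intervals above 0 throughout, again beside 13 of 29 over all members and the shares over all features given above. Rpsa, a protein first described as a precursor of a laminin receptor, had ratios of 0.10, 0.38 and 0.06. Only its hippocampal interval (0.29 to 0.48) lay clear of 0. Rps27l, which p53 induces, had 62 and 62, then 61 and 61 tags in the brain tissues, with brain intervals that include 0. In liver it had 459 tags in the knockout and 618 in the larger wild-type library, a scaled ratio of 0.31 (0.14 to 0.49).

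In the body of the subunit, Rps7 had ratios of 0.15, 0.40 and 0.25 and Rps13 had 0.21, 0.27 and 0.13, all with intervals above 0. Rps4x, encoded on the X chromosome (102184941 to 102189391), had 0.08 (-0.06 to 0.23), 0.39 and 0.40. Rps24, treated with its transcript variants below, had 728 and 658, 820 and 750, and 988 and 698 CPM, with ratios of 0.15, 0.13 and 0.50. Rps6 (chr4:86854099-86857367) had 60 and 62, 55 and 71, and 35 and 41 tags. Its hippocampal ratio of -0.48 (-1.02 to 0.05) and its liver ratio of 0.51 (-0.18 to 1.2) both had intervals that included 0. Rps15a, with 59 and 41, 43 and 47, and 25 and 39 tags, had ratios of 0.57, -0.24 and 0.10, and none of its intervals left out 0. For these low-count members a difference of the size seen in the others was not detectable at this depth.

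The 2 fusion precursors differed in how they could be counted. Fau had ratios of 0.01 (-0.05 to 0.07), 0.43 (0.36 to 0.50) and 0.32 (0.25 to 0.39), with the cerebellar value near 0; whether the tissues differ was not shown, since the intervals hold counting error only. Rps27a had 13 and 2, 7 and 7, and 6 and 3 tags of its own, too few for a comparison, and 99.5% of its tags were in shared rows. With those rows added its ratios were 0.19 (0.09 to 0.29), 0.13 (0.02 to 0.24) and 0.02 (-0.10 to 0.14).

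Rows that match both a member and predicted genes were counted apart, since near-identical copies share tags. The joint row of Rps27 and Gm9846 held 2239 and 1976, 2629 and 1756, and 1455 and 1939 tags. Scaled, the knockout was higher in each tissue, with ratios of 0.22, 0.47 and 0.33. The main joint row of Rps15 had 0.06, 0.43 and 0.28, beside 0.51, 0.81 and 0.24 from its own rows, which held 47 and 34, 51 and 27, and 19 and 27 tags. Rps16 differed between its rows: its own rows held 47 and 63, 55 and 62, and 40 and 62 tags with ratios of -0.38, -0.29 and 0.11, and its main joint row, with LOC100505015 and LOC100862433, held 571 to 1007 tags with ratios of 0.09, 0.71 and -0.02. With all shared rows added, 24 of 30 members were higher in all 3 tissues and 14 had intervals above 0 throughout.

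Rps26 and Rps28, neighbours at the mRNA exit, went with the rest in brain and not in liver. Rps26 (chr10:128624529-128626506), whose human gene is another cause of Diamond-Blackfan anaemia, had 301 and 235, 379 and 256, and 672 and 754 CPM. The knockout was the higher library in both brain tissues and the lower in liver, with ratios of 0.36 (0.22 to 0.50), 0.57 (0.43 to 0.70) and -0.17 (-0.31 to -0.02). With DESeq2 size factors the liver ratio was -0.06 (-0.20 to 0.08), an interval that includes 0, and by library totals it was -0.29 (-0.43 to -0.15). Rps28 had 207 and 164 CPM, 266 and 186 CPM, and 414 and 437 CPM, with ratios of 0.33, 0.52 and -0.08 (-0.26 to 0.10). Rps29, a zinc-binding head protein, had 1003 and 878 CPM, 1185 and 1009 CPM, and 1403 and 1456 CPM, with ratios of 0.19, 0.23 and -0.05. The fitted difference between the liver effect and the mean brain effect was -0.63 (SE 0.26) for Rps26, -0.50 (SE 0.26) for Rps28 and -0.27 (SE 0.31) for Rps29. None was called by edgeR's quasi-likelihood test (adjusted p 0.331, 0.497 and 0.835), where 1.02% of features were called higher and 0.372% lower, and this fit has 1 residual degree of freedom. The row that Rps26 shares with LOC100046297 had ratios of 0.03, -0.07 and -0.02, all with intervals that include 0.

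The second comparison was between tissues, and its direction for most members rests on how the libraries are scaled. TMM scaling factors were 0.52 and 0.57 in liver and 1.29 to 1.41 in brain. Under TMM, 28 of 28 members were above 0 in liver against brain (median 1.08), and 24 were called higher and 0 lower, beside 33.6% and 37.4% of all features; without cerebellum 13 were called higher. Scaled by library totals alone, the median was -0.22, with 3 called higher and 7 lower, and the median over all features moved by -1.29. Set against that median, the members stood 1.216 higher under TMM and 1.205 higher under library totals. Rescaling moves all features by nearly the same amount, so this difference could hardly change and is no check on the scaling. Rps27l, Rps2 and Rps18 were called higher in liver under both scalings, and no member was called lower under both.

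Each member's share of all member tags, shared rows included, needs no scaling. Rps27l made up 1.34% and 1.28% of member tags in knockout and wild-type liver and 0.110 to 0.145% in the 4 brain libraries. Rps2 made up 10.4% and 9.81% in liver, 5.54% and 5.72% in hippocampus and 2.84% and 2.81% in cerebellum. Rps18 made up 3.31% and 3.24% in liver against 1.76 to 2.01% in brain, and Gnb2l1 2.96% and 2.91% against 1.89 to 2.22%. These 4 of 30 members were the ones with both liver libraries above all 4 brain libraries. Of features of at least 10 mean CPM, set in the same way against the summed member tags, 19.8% were above and 60.3% below. The members as a set stood 1.216 above the median of all features in liver against brain. Most features therefore fall below by this measure, and these percentages are no matched background. Shares of members are also bound to each other, so the larger share of Rps2 in liver lowers the others. Rps21 made up 3.64% and 3.81% in liver and 6.07 to 6.90% in brain, and Rps29 3.82% and 4.71% against 6.33 to 6.72%. In all, 8 of 30 members had both liver libraries below all 4 brain libraries, namely Rps3, Rps3a, Rps7, Rps15, Rps21, Rps23, Rps24 and Rps29, and for 18 the tissues overlapped.

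**Figure D4:**
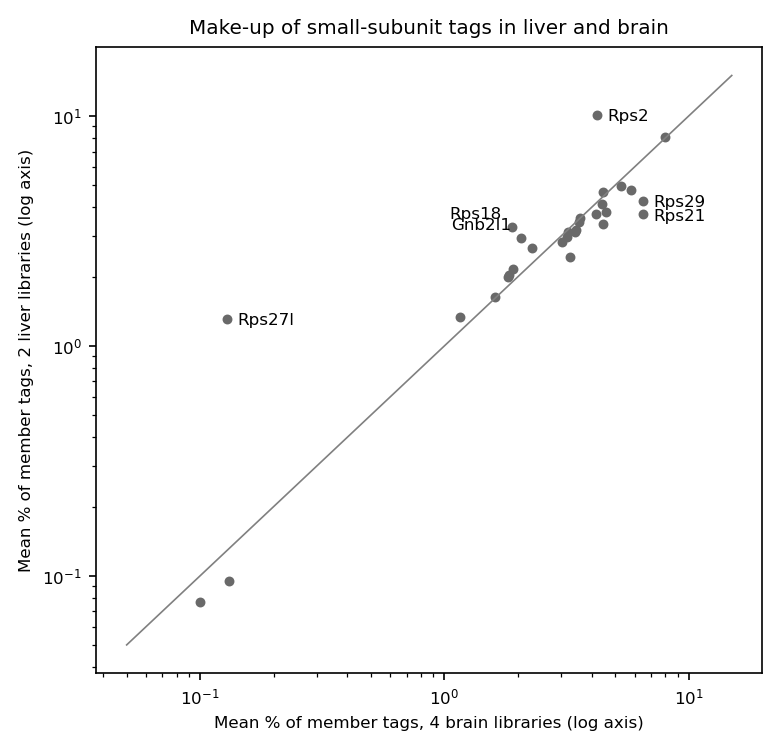
Mean percent of all member tags taken by each of the 30 members in the 2 liver libraries (vertical) and the 4 brain libraries (horizontal), both on log axes; the line marks equal shares and members that differ by at least 0.5 on the log2 scale are named. Rps27l and Rps2 lie above the line, Rps21 and Rps29 below it.

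Fitted under TMM, the liver against brain differences were 4.47 (SE 0.15) for Rps27l, 2.44 (SE 0.23) for Rps2 and 1.90 (SE 0.18) for Rps18, with edgeR adjusted p of 4.3e-15, 2.0e-08 and 1.8e-08. Under library totals the same 3 had 3.16, 1.14 and 0.60 (adjusted p 2.8e-12, 1.3e-05 and 0.0022). In rows of the symbol alone the lowest were Rps24 (0.18, SE 0.21, adjusted p 0.472), Rps21 (0.32, SE 0.23, adjusted p 0.220) and Rps29 (0.50, SE 0.23, adjusted p 0.061). Under library totals these 3 were at -1.13, -0.99 and -0.80 and were called lower. The place of Rps24 rests on leaving out its shared rows, with 25.9% of its tags: with them it was at 0.85 (edgeR adjusted p 0.0025), and by its highest row alone also at 0.85 (edgeR adjusted p 0.00047).

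Between the brain tissues 1 of 28 members was called, Rps2, at -1.18 in cerebellum against hippocampus (edgeR adjusted p 0.0039), where 13.1% of features were called higher and 14.9% lower. Its 2 cerebellum libraries, at 349 and 387 CPM, lay below the 2 hippocampus libraries, at 765 and 908. The median of all 28 members was -0.19 under TMM and -0.08 under library totals.

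Rps24 was split by tissue between its transcript variants. The 3 RefSeq variants of the gene (chr14:24490678-24496960) share exons 2 to 4 and differ in the small exons before the last one, which set where the reading frame ends. In GENCODE vM21 (GRCm38, plus strand) variant 1 has an exon of 20 bases at chr14:24495430-24495449, variant 3 has that exon and 1 of 18 bases at chr14:24494052-24494069, and variant 2 has neither. Variant 2 also has a longer last exon, taken up below. The stretches around the small exons are printed because these exons set where the reading frame ends. Each gives the last 24 bases of exon 4, then the small exons in capitals, then the first 12 bases of the last exon.
Variant 1: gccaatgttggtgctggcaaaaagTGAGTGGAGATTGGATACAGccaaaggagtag
Variant 2: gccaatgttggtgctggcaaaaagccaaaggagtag
Variant 3: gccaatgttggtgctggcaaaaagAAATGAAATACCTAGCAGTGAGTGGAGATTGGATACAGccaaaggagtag
The annotated stop codon is at 24495430 to 24495432 in variant 1, at 24495784 to 24495786 in variant 2 and at 24494055 to 24494057 in variant 3.

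Tags that fitted variant 1 alone numbered 827 and 738, 947 and 741, and 23 and 53. Tags that fitted variant 2 alone numbered 12 and 7, 14 and 8, and 132 and 132. Brain libraries were thus high in the first and low in the second, liver libraries the reverse, with no overlap. Tags that fitted all 3 variants equally were at 377 and 346 CPM, 385 and 414 CPM, and 818 and 577 CPM. Of tags that tell variant 2 from the others and match no other gene, variant 2 took 1.06% (95% exact interval 0.549 to 1.85%) and 0.675% (0.272 to 1.39%) in cerebellum. It took 1.07% and 0.854% in hippocampus, and 82.5% (75.7 to 88.1%) in knockout and 68.8% (61.7 to 75.2%) in wild-type liver. These shares are within a library and do not depend on scaling.

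**Figure D5:**
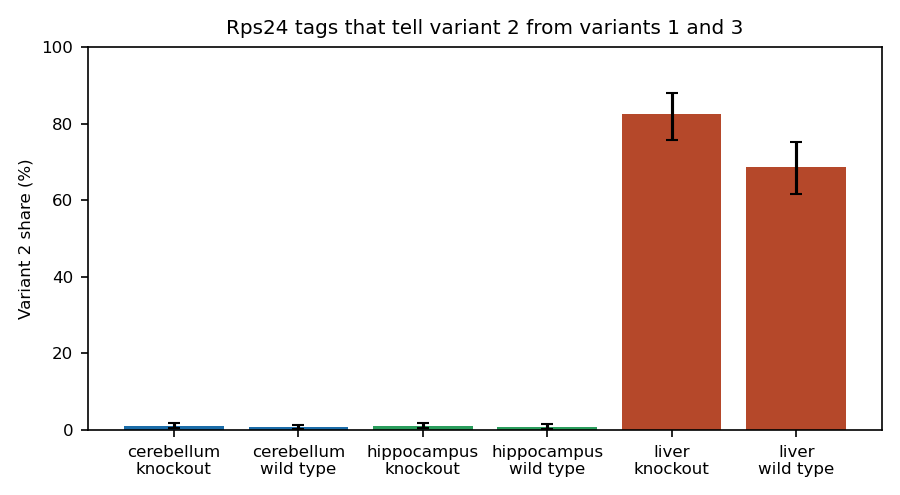
Share (%) of Rps24 tags assigned to variant 2 among those that distinguish it from variants 1 and 3, in each of the 6 libraries, with 95% binomial intervals. The 4 brain libraries lie at 0.675 to 1.07% and the 2 liver libraries at 82.5% and 68.8%.

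With each row of the table fitted as its own feature, a choice made after seeing the data, liver against brain was -3.10 (SE 0.21, edgeR adjusted p 2.6e-10) for the variant 1 row and 5.08 (SE 0.21, edgeR adjusted p 4.1e-13) for the variant 2 row. In that fit 33.0% of rows were called higher and 37.4% lower. The row shared by variant 2 and LOC677113 went the same way, with 29, 30, 40 and 27 tags in the brain libraries and 755 and 891 in liver, a difference of 6.08 (SE 0.17). The row shared by variant 3 and Gm2830 went the other way, at -3.45 (SE 0.25). Variant 2 is annotated in GENCODE with a last exon of 1185 bases and the others with 71, so a tag may have been assigned to it through the exon junction or through that longer end, and these cannot be told apart in counts per record. None of the 4 rows was called between genotypes, where the variant 2 row had the largest difference of the 4 (0.74, SE 0.22, adjusted p 0.873).

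The large-subunit genes give the nearest comparison. Of 45 tested, all 45 were above 0 in the knockout across tissues, with a median of 0.17, and 0 were called; 23 were higher in all 3 tissues and 3 had intervals above 0 in each. Small-subunit assembly factors, modifying enzymes and regulators of these mRNAs did not share that direction: of 60 tested, 30 were above 0 and 30 below, with a median near 0 and 0 called. The lists are not matched for level. At 100 CPM or more in every tissue lay 2 of these genes, against 23 small-subunit and 36 large-subunit genes. The part of level in the contrast was not tested. The highest of the 60 were Pdcd2l (0.69, SE 0.24, edgeR adjusted p 0.902), related to a protein that accompanies the human RPS2 protein, and Utp20 (0.52, SE 0.27), of the early assembly machinery. The lowest were Rrp9 (-0.53) and Rrp12 (-0.47), both assembly factors. Larp1, which binds TOP mRNAs, was picked out after its values were seen: it was lower in the knockout in each tissue, by log2 ratios of -0.21, -0.51 and -0.55, and its edgeR adjusted p across tissues was 0.824.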

How the data were processed

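Sense and antisense tag counts per RefSeq record were taken as the authors deposited them in a table of all 6 libraries; per the file headers, tags were matched first to RefSeq RNA and then to GRCm38. CASAVA 1.8.2 and build mm9 are named per the submitters' processing notes; for the aligner, a name was not given in the sources used here. The protocol text in the labels speaks of midbrain and of ages in weeks, while the sample labels give hippocampus and 6 months, which are used here. The 3 single-tissue tables of the same libraries were not used.

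Sense counts of RNA records were summed per symbol; rows naming several genes were kept as joint features. Tags on genomic sequence (16.0 to 21.3% of all tags) and tags with no match (7.21 to 8.83%) stayed out of library sizes. Antisense counts of a member came to at most 62 over the 6 libraries. edgeR 4.0.16 (R 4.3.3) fitted tissue and genotype by quasi-likelihood to 11557 features left by filterByExpr, with TMM scaling and Benjamini-Hochberg adjustment over all of them; DESeq2 1.42.0 was an alternative. Tissue is the pairing of the genotypes. Within a tissue the ratio has an exact 95% Clopper-Pearson counting interval. On simulated counts for the genotype comparison, 13 of 50 features changed 1.5-fold and 36 of 50 changed 2-fold were recovered among 11557.

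The members and lists were chosen with earlier results of these data known. Of the assembly list, the 2 highest and 2 lowest are named with their fitted values. Full values by library are given for the members with the 3 highest and 3 lowest values across tissues and in liver against brain. They are also given for the 3 most and 3 least counted in their own rows, any called between genotypes or brain tissues, and any with intervals on opposite sides of 0. Members called in liver against brain are too many for this and are given as counts.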

Additional observations from a re-analysis of the deposited data

Results flagged for a closer look

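Rps26 was singled out because its tissues moved in opposite directions: the log2 ratio of knockout to wild type for cerebellum, hippocampus and liver came to 0.359, 0.566 and -0.166, with counting intervals above 0 in both brain tissues and below 0 in liver. That holds under TMM scaling and library totals; with DESeq2 size factors the liver interval was -0.20 to 0.08 and includes 0. Each value compares 1 library with 1 library. The liver effect minus the mean brain effect was -0.63 in the fit with 1 residual degree of freedom and was not called (edgeR adjusted p 0.331), so the difference between tissues is not shown by that test. Animals were not measured singly, so no spread between animals can be set beside it.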

How the results depend on the processing

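Knockout against wild type across tissues kept 0 members called and a median between 0.20 and 0.26 under all alternatives run. Signs turned for Rps16 (0.227 with shared rows added), Rps6 (0.0042 by DESeq2; -0.24 to 0.21 with tissues left out in turn), Rps15a (-0.13 to 0.35 with tissues left out) and Rps27l (-0.035 to 0.22 with tissues left out), all members with few tags except Rps27l in liver. Tissue pairs the genotypes in the main fit; without that replicate block the median was 0.257 and Rps6 was at 0.067, and the block changed no call. No paired analysis by animal was possible because each group holds 1 library.

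Within tissues, the medians became 0.204 in hippocampus and 0.374 in liver with DESeq2 size factors, 0.285 in hippocampus with shared rows added and 0.147 in liver by library totals, which shift the median of all features in liver by 0.11 and -0.10. Set against that median, taken over features of at least 10 CPM, the members stood 0.26 to 0.28 higher in liver under all 3 scalings. Rescaling moves members and other features nearly alike, so this likeness was close to fixed in advance and is no check. Members past the threshold were 3 in cerebellum with shared rows added and, by library totals, 5 higher and 1 lower in liver. At 1.5-fold, cerebellum had 1, hippocampus 2 and liver 0. The cerebellar one was Rps27a, whose own rows, at 13 and 2 tags, were too few for a comparison. Those in hippocampus were Rps19 and Rps15, and for Rps15 the ratio rests on 51 and 27 tags, with 97.5% of its tags left in shared rows. In all 3 tissues, library totals gave 1 member lower throughout and 0 past 1.2-fold; with tissues left out, 2 to 5 were past 1.2-fold and 0 to 2 were lower. Members with intervals above 0 throughout numbered 9 to 17. The shares over all features given above are those of the main setting, and none is given here for the alternatives.

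Liver against brain turned with the scaling. By library totals 3 members were called higher and 7 lower, the median was -0.221, and these members lay below 0: Fau -0.158, Rps10 -0.187, Rps12 -0.054, Rps13 -0.289, Rps14 -0.219, Rps15a -0.540, Rps16 -0.146, Rps19 -0.306, Rps23 -0.448, Rps25 -0.282, Rps28 -0.220, Rps3 -0.350, Rps3a -0.588, Rps4x -0.044, Rps6 -0.676, Rps7 -0.284, Rps9 -0.056 and Rpsa -0.222, besides Rps15, Rps21, Rps24 and Rps29. The median was 0.927 with no filter, and 0.90 to 1.05 with 13 to 24 called when a brain tissue was left out, the lowest without cerebellum. Rps24 reached 0.85 and was called with shared rows added, which brings in the variant 2 row with LOC677113. Cerebellum against hippocampus had a median of -0.076 by library totals and 2 members called lower with liver transcripts removed. The median difference between the liver and brain effects of the knockout was 0.222 with DESeq2 size factors and by DESeq2, 0.014 with shared rows added and -0.026 by library totals. Causes were not tested. Leaving out 1 genotype could not be fitted, and depth limits Rps6, Rps15, Rps15a, Rps16 and Rps27a, which had fewer than 100 tags of their own in every library.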
